A study of Mus musculus with 4 samples.

Results

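Collagen and laminin chains, the subunits of the fibrils and sheets of extracellular matrix around the seminiferous tubules, were followed in ribosome footprints of whole mouse testes at day 10. The members were all rows of the deposited gene table whose symbol is Col, a type number, a and a chain number, or names a laminin alpha, beta or gamma chain. They were 48 of 14984 rows: 6 chains of types 1, 3 and 5 (here called fibrillar), 16 basement membrane chains (6 of type 4 collagen and 10 laminins) and 26 other collagens. Any further fibril-forming types were counted among the other collagens. The study deleted Eif5, which encodes a translation initiation factor, by crossing mice with a loxP-flanked Eif5 gene (Eif5fl/fl) to Stra8-Cre mice, whose recombinase is driven by the promoter of a germ cell gene. Control and conditional knockout (Eif5 cKO, here cKO) testes were represented by 2 libraries each. Whether the controls carried the floxed allele or the transgene is not given in the sources used here, nor whether the libraries of a group came from separate animals. The p-values therefore measure only the spread between these libraries, mostly as pooled over genes, and that spread may be technical. The tissue was whole testis, so fewer cells of a type and less RNA per cell cannot be told apart. RNA libraries were not used here, so a change in RNA and a change in ribosomes per RNA cannot be told apart either. A further 7 collagen and laminin genes of the RefSeq table, among them Lamb3 and Col2a1, had no row and were not analysed here.

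Fibrillar collagens are triple helices of long glycine-rich chains that assemble into the fibrils of the interstitium, and are made mainly by fibroblast-like cells. Type 4 collagen forms a sheet-like network and laminins, which are trimers of an alpha, a beta and a gamma chain, form another, and both are bound together in every basement membrane. In the testis the tubule basement membrane is laid down jointly by Sertoli cells inside the tubule and peritubular myoid cells outside it, and spermatogonia rest on it. Each chain has to pair with its partners inside the endoplasmic reticulum before it is secreted, so ratios between chains of 1 trimer, and between some related chains of different trimers, are given within each library as well as values between groups. Germ cells, in which Eif5 was deleted, are not regarded as the main makers of these chains.

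Values are those deposited, which are reads divided by 1 size factor per library, and whole reads were recovered from them. The libraries held 2225964 to 2934609 recovered reads. Eif5 had values of 365 and 304 in the controls against 173 and 266 in cKO replicates 1 and 2 (log2 fold change -0.63, SE 0.25; limma adjusted p = 0.319). All 12 germ cell markers listed were detected in each library, and all 12 had a negative log2 fold change. Of these, 7 were called lower in cKO at a limma adjusted p under 0.05. They were Tex101 (log2 fold change -1.99), Dpep3 (-1.83), Sycp1 (-1.77), Stra8 (-1.53), Sycp3 (-1.26), Dazl (-1.14) and Mael (-1.01). The 12 germ cell markers together took 0.376% and 0.339% of reads in control and 0.180% and 0.202% in cKO. Over all genes, limma with Benjamini-Hochberg adjustment called 82 of 12095 tested at an adjusted p under 0.05, 73 lower (0.604%) and 9 higher (0.0744%). Fold changes are cKO minus control on the log2(value + 1) scale, where a change in a gene of low value appears smaller than it is.

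No collagen or laminin chain passed that test. Together the 48 chains took 2.60% (replicate 1) and 2.83% (replicate 2) of all reads in the controls against 3.51% and 2.67% in cKO. The cKO library with the lower share lay between the controls, so the groups overlapped. The 95% Wilson interval of each share was narrow, for example 3.49% to 3.53% in cKO replicate 1, and such intervals cover counting error only. Fibrillar chains accounted for the larger part, with 1.36% and 1.50% in the controls against 1.84% and 1.37% in cKO. Basement membrane chains took 0.735% and 0.739% in the controls against 0.966% and 0.742% in cKO. For the other collagens the shares were 0.497% and 0.594% in the controls against 0.701% and 0.556% in cKO. In each class cKO replicate 1 had the highest share, and cKO replicate 2 was beside or between the controls. The mean share of all chains was 2.71% ± 0.165 over the controls against 3.09% ± 0.594 over the cKO libraries (SD, n = 2 each). With 2 libraries a group an exact permutation test cannot give a two-sided p below 0.333, and none is given for the shares.

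**Figure D1:**
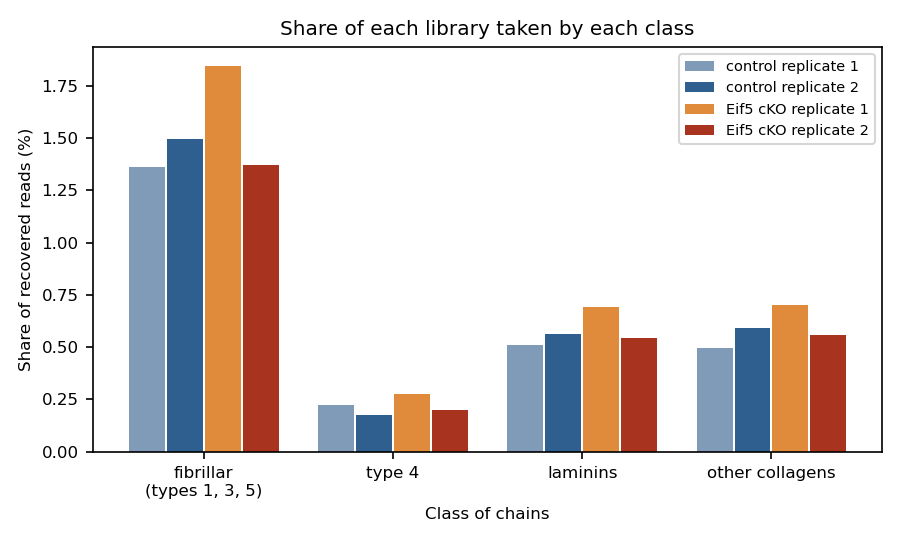
Share of recovered reads (percent, vertical axis from 0) taken by fibrillar collagens, type 4 collagens, laminins and other collagens (horizontal axis) in the 2 control and 2 cKO libraries, 1 bar per library. cKO replicate 1 has the highest bar in each class, reaching 1.84% for fibrillar collagens, while cKO replicate 2 (1.37%) is beside the controls.

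The default low-count filter of edgeR (minimum count 10) left 44 of the 48 chains for testing: 6 fibrillar, 15 basement membrane and 23 other. Of these 44, 0 were called by limma, against 0.678% of all genes tested, and 3 had an unadjusted p under 0.05, against 10.6% of all genes. edgeR, DESeq2 and limma-voom on the recovered reads also called 0 chains. On simulated reads of this design limma found 21% of genes given a 2-fold change and 72% of those given a 4-fold change. These genes were drawn from all that passed the filter, so the rates are not those of the chains. The median SE was 0.26 for the chains and 0.34 over all genes, and a chain changed 2-fold could still have been missed. The fitted 95% intervals limit what could have been missed: the upper limit was below a log2 fold change of 1 for 36 of the 44, and the lower limit was above -1 for 38. Over all 12095 genes tested these counts were 8462 and 8193. Both cKO values lay above both controls for 10 of the 44 chains, near the 20.0% of all genes for which this held. Both lay below for 4 of the 44, against 20.9% of all genes. The median log2 fold change was 0.19 for the fibrillar, 0.24 for the basement membrane and 0.004 for the other chains, beside 0.003 over all genes tested. A positive sign was found for 29 of the 44, against 50.3% of all genes.

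The 2 cKO libraries differed from each other more than the groups did. cKO replicate 1 was above cKO replicate 2 for 39 of the 44 chains, against 49.7% of all genes, with a median log2 difference of 0.38. It held the highest of the 4 values for 26 of the 44, against 28.3% of all genes. Relative to the mean of the controls, the median chain was at a log2 difference of 0.37 in cKO replicate 1 and -0.03 in cKO replicate 2. The controls also differed, with control replicate 2 above control replicate 1 for 32 of the 44, against 49.9% of all genes (median log2 difference of the chains 0.27). Leaving out cKO replicate 1 gave medians of -0.03, 0.003 and -0.05 for the fibrillar, basement membrane and other chains, and without cKO replicate 2 they were 0.44, 0.42 and 0.11. Without cKO replicate 2, limma called Col9a2 and Col23a1 higher, the latter named after its values were seen. More of all genes were also called in that fit than with all 4 libraries. In that fit the cKO group is a single library, the spread comes from the controls and the trend over genes, and the lone library is assumed to vary like them. With values scaled on 12 Sertoli cell markers, the median of all genes shifted to -0.30 and the class medians to -0.12, -0.07 and -0.30. Relative to that shift they were 0.19, 0.23 and 0.004, so the sign of each class median depends on the scaling.

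**Figure D2:**
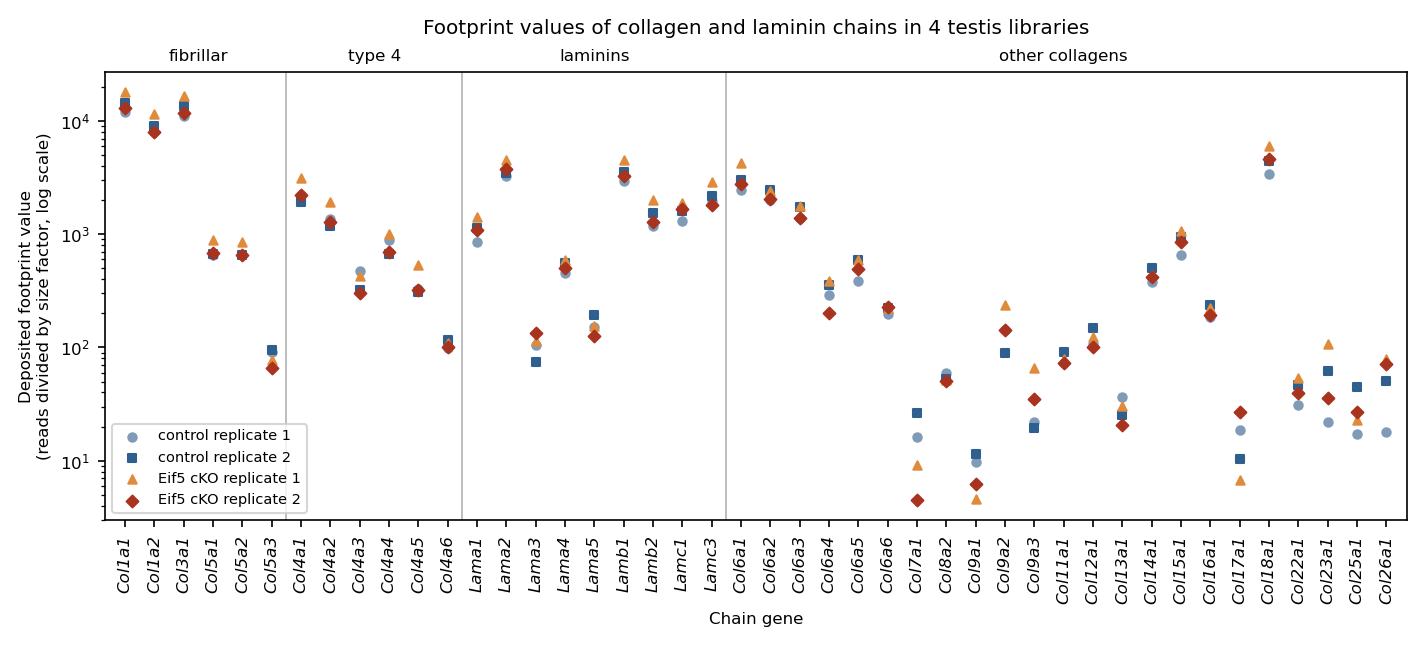
Deposited footprint value (log axis) of each of the 44 tested chains (horizontal axis, grouped by class) in the 4 libraries, 1 symbol per library. Values are not divided by length, so levels of different genes are not comparable. Within a gene, cKO replicate 1 (triangles) is the highest for 26 chains, and cKO replicate 2 (diamonds) lies between the controls for 23. Over all 12095 genes tested, cKO replicate 2 lies between the controls for 3504.

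Among the fibrillar chains, type 1 collagen is the main fibril of connective tissue, built from Col1a1 and Col1a2 chains, and type 3, a trimer of Col3a1 chains alone, co-assembles with it. Col1a1 had values of 12103 and 14365 in the controls against 17895 and 12977 in cKO replicates 1 and 2. Col1a2 had 8012 and 9020 in the controls against 11634 and 8017 in cKO. For Col3a1 the values were 11133 and 13434 in the controls against 16754 and 11867 in cKO. All 3 genes showed the same order of libraries at the top, with cKO replicate 1 highest and control replicate 2 next, and for all 3 the second cKO library lay between the controls. Their log2 fold changes were 0.21 (SE 0.35, 95% interval -0.50 to 0.92), 0.18 (SE 0.32, -0.46 to 0.82) and 0.21 (SE 0.35, -0.49 to 0.90), with limma adjusted p = 0.882, 0.884 and 0.882.

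Because Col1a2 and Col3a1 ran in parallel over the libraries, the 150 bases before their RefSeq start sites are shown (GRCm38.p6, plus strand; Col1a2 at chr6:4505468-4505617 and Col3a1 at chr1:45311388-45311537). Capitals mark matches, on either strand, to the word CCAAT (the letters bound by NF-Y), to TATAAA (the core promoter box) and to GGGCGG (an Sp1 box), which were searched without regard to overlap. Col1a1 has no window in the RefSeq promoter table.
Col1a2: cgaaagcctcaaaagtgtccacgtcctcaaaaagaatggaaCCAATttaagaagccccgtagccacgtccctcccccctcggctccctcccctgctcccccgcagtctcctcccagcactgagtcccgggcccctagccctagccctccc
Col3a1: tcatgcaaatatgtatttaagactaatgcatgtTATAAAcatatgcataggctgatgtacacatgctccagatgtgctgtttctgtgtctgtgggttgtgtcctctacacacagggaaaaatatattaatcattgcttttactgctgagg
Col1a2 held 1 match, to CCAAT, beginning 109 bases before the start, and Col3a1 held 1 match, to TATAAA, beginning 117 bases before it. In the 250 bases before the start, CCAAT was present on either strand in 13 of the 34 member genes with a window and in 34.5% of all 27025 windows. TATAAA was present in 3 of the 34 members and 13.0% of all windows, and GGGCGG in 22 of the 34 and 32.9% of all windows. The 27025 windows include genes without a row in the deposited gene table, while every member has a row, so the sets are unlike. The matches describe letters only, and Col1a2 and Col3a1 shared none of these words in the bases shown. Their order of libraries at the top was also found in other chains, among them Lama1, Lamb1, Lamb2, Lamc3, Col6a1 and Col15a1. A link to the words was not tested.

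Type 5 collagen is a minor fibril component that sits inside type 1 fibrils and limits their width. Col5a1 had values of 650 and 674 in the controls against 892 and 685 in cKO, so both cKO libraries were above both controls. Col5a2 had 661 and 651 in the controls against 847 and 653 in cKO, and here the groups overlapped. The third type 5 gene, Col5a3, ran the other way, with 90.6 and 94.1 in the controls against 77.3 and 65.5 in cKO, both cKO libraries being lower. Log2 fold changes were 0.24 (SE 0.23, 95% interval -0.22 to 0.70) for Col5a1, 0.18 (SE 0.23, -0.28 to 0.64) for Col5a2 and -0.37 (SE 0.33, -1.03 to 0.29) for Col5a3. limma gave them adjusted p = 0.754, 0.834 and 0.732, and Col5a3 rested on 68 to 111 reads a library.

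Type 4 collagen, the network of the basement membrane, is made from 6 genes arranged as 3 head-to-head pairs. Col4a1 (chr8:11198423-11312889) and Col4a2 (chr8:11312805-11449287) overlapped by 85 bases at their 5′ ends in the RefSeq table for GRCm38, and Col4a4 (chr1:82448419-82587034) and Col4a3 (chr1:82586921-82722059) by 114. Col4a6 (chrX:141165403-141474095) and Col4a5 (chrX:141475370-141689236) lay 1274 bases apart. No source used here gives the strand setting of the counting, and reads in the short overlaps cannot be assigned to 1 gene with certainty. Col4a1 and Col4a2 encode the chains of the network found in nearly all basement membranes. Col4a1 had values of 2212 and 1942 in the controls against 3162 and 2228 in cKO, with both cKO libraries above both controls, cKO replicate 2 only slightly. Col4a2 had 1351 and 1182 in the controls against 1912 and 1281 in cKO, and the groups overlapped. The log2 fold changes were 0.36 (SE 0.25, 95% interval -0.14 to 0.86) and 0.31 (SE 0.24, -0.17 to 0.79), with limma adjusted p = 0.651 and 0.695.

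The remaining type 4 genes encode chains of more restricted networks, and Col4a3, Col4a4 and Col4a5 supply the one best known from the kidney glomerulus. Col4a3 had values of 472 and 321 in the controls against 427 and 300 in cKO, and Col4a4 had 894 and 669 in the controls against 1005 and 690 in cKO. In both, replicate 1 exceeded replicate 2 in either group, and the groups overlapped. Col4a5 had 326 and 311 in the controls against 534 and 322 in cKO, a difference carried by 1 library. Col4a6 had 97.9 and 116 in the controls against 110 and 100 in cKO, the flattest of the 6. Log2 fold changes were -0.12 (SE 0.24) for Col4a3, 0.11 (SE 0.24) for Col4a4, 0.38 (SE 0.24) for Col4a5 and -0.02 (SE 0.30) for Col4a6, with limma adjusted p from 0.625 to 0.991.

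Laminin alpha chains give each trimer its tissue and its receptor binding. Lama2, the alpha chain best known from muscle basement membranes, had values of 3247 and 3496 in the controls against 4507 and 3746 in cKO. Lama1, the alpha chain of early epithelial basement membranes, had 859 and 1132 in the controls against 1419 and 1084 in cKO. The groups were apart for Lama2 and overlapped for Lama1, and the log2 fold changes were 0.29 (SE 0.26, 95% interval -0.24 to 0.81) and 0.33 (SE 0.23, -0.14 to 0.80). Lama4, a chain of vessel walls, had 450 and 558 in the controls against 598 and 502 in cKO (log2 fold change 0.13, SE 0.23). Lama3, a chain of skin-type epithelia, had 106 and 74.6 in the controls against 115 and 133 in cKO (0.47, SE 0.31), and was the tested laminin with the highest log2 fold change. Lama5, the widespread alpha chain of mature basement membranes, had 152 and 194 in the controls against 153 and 127 in cKO (-0.30, SE 0.27), and was the tested laminin with a negative sign. None of the 5 alpha chains passed, with limma adjusted p from 0.627 to 0.889.

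Beta and gamma chains are shared by many trimers. Lamb1 had values of 2962 and 3553 in the controls against 4486 and 3235 in cKO, and Lamb2 had 1184 and 1553 in the controls against 2002 and 1281 in cKO. In both genes the order over the 4 libraries was that of type 1 collagen at the top, and cKO replicate 2 lay between the controls. Lamc1, the gamma chain of most laminins, had 1313 and 1612 in the controls against 1872 and 1682 in cKO, with both cKO libraries higher. Lamc3 had 1973 and 2165 in the controls against 2908 and 1813 in cKO, so its cKO libraries were the highest and the lowest of the 4. Log2 fold changes were 0.23 (SE 0.26) for Lamb1, 0.24 (SE 0.24) for Lamb2, 0.29 (SE 0.23) for Lamc1 and 0.15 (SE 0.25) for Lamc3, with limma adjusted p from 0.714 to 0.879.

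**Figure D3:**
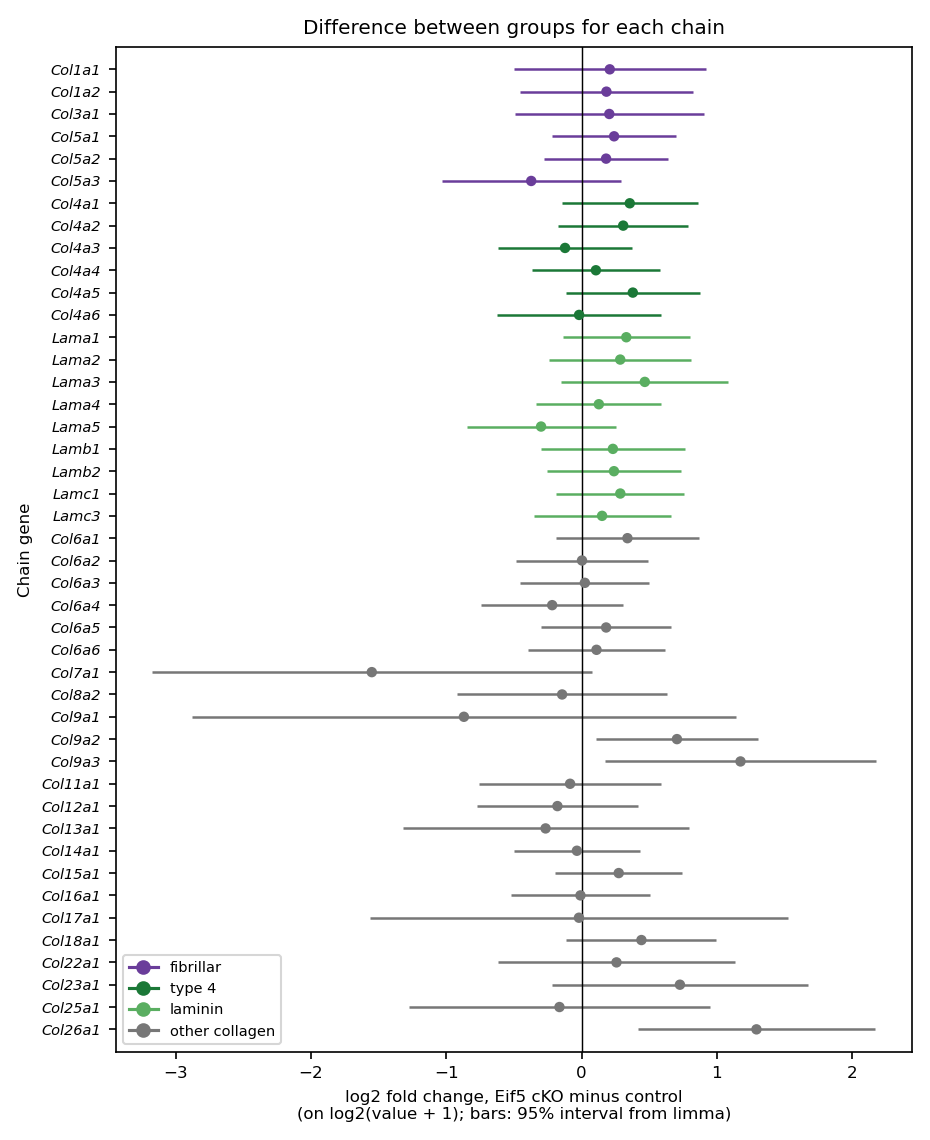
Log2 fold change of cKO minus control on the log2(value + 1) scale (horizontal axis) for the 44 tested chains (vertical axis), with 95% intervals from limma as bars and colours for class. Most of the well-covered chains sit a little right of 0 with intervals that include 0; the intervals of Col26a1 (0.42 to 2.17), Col9a2 (0.11 to 1.30) and Col9a3 (0.17 to 2.18) do not, though none of these 3 passed after adjustment over all genes.

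Among the other collagens, type 6 forms beaded microfilaments close to basement membranes, from Col6a1, Col6a2 and Col6a3 chains. Col6a1 had values of 2456 and 2989 in the controls against 4258 and 2760 in cKO. Col6a2 had 1990 and 2445 in the controls against 2387 and 2049 in cKO, and Col6a3 had 1383 and 1723 in the controls against 1769 and 1394 in cKO. The groups overlapped in all 3, and the high value of cKO replicate 1 was found in Col6a1, and in its partners cKO replicate 1 was close to control replicate 2. Their log2 fold changes were 0.34 (SE 0.26), 0.004 (SE 0.24) and 0.02 (SE 0.24). Col6a4, Col6a5 and Col6a6, neighbours on chromosome 9 (Col6a6 from 105689417, Col6a4 to 106096828) whose chains resemble that of Col6a3, had log2 fold changes of -0.22 (SE 0.26), 0.18 (SE 0.24) and 0.11 (SE 0.25). Col6a5 had 384 and 591 in the controls against 591 and 495 in cKO, and the controls were the lowest and the highest of the 4 libraries.

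Types 15 and 18 are collagens of the basement membrane zone that carry long sugar chains, and type 18 is the source of the fragment endostatin. Col18a1 had values of 3401 and 4454 in the controls against 6038 and 4634 in cKO. Both cKO libraries were above both controls, with a log2 fold change of 0.44 (SE 0.27, 95% limits -0.11 and 1.00; limma adjusted p = 0.600). Col15a1 had 660 and 940 in the controls against 1061 and 857 in cKO, and its groups overlapped (log2 fold change 0.28, SE 0.23). Col14a1, which decorates the surface of fibrils, had 382 and 507 in the controls against 437 and 423 in cKO (-0.03, SE 0.23), both cKO values lying between the controls.

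The 4 chains with the smallest p were minor collagens. Col26a1, first described in testis and ovary, had values of 17.95 and 50.5 in the controls against 79.5 and 71.8 in cKO, from 22, 44, 70 and 80 reads. Its log2 fold change of 1.29 (SE 0.43) was the highest of the 44, with limma adjusted p = 0.198, and it ranged from 0.57 without control replicate 1 to 2.01 without control replicate 2. Col9a2 and Col9a3, chains of the cartilage collagen that coats type 2 fibrils, had higher values in both cKO libraries. Col9a2 had 142 and 89.5 in the controls against 239 and 143 in cKO (0.71, SE 0.29; limma adjusted p = 0.353), with cKO replicate 2 almost level with control replicate 1. Its log2 fold change was 1.07 without cKO replicate 2, where it was called, 1.03 without control replicate 1, 0.38 without control replicate 2 and 0.34 without cKO replicate 1. Col9a3 had 22.03 and 19.5 in the controls against 65.9 and 35.0 in cKO (1.18, SE 0.49; limma adjusted p = 0.356), with a range from 0.73 without cKO replicate 1 to 1.62 without cKO replicate 2. Their partner Col9a1 had 12 and 10 reads in control and 4 and 7 in cKO, so it ran the other way at a depth that shows little. Col7a1, the anchoring fibril collagen of skin, had 20 and 23 reads in control and 8 and 5 in cKO (-1.55, SE 0.80; limma adjusted p = 0.501).

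The other 10 tested collagens were Col8a2, Col11a1, Col12a1, Col13a1, Col16a1, Col17a1, Col22a1, Col23a1, Col25a1 and the Col9a1 already given. They had log2 fold changes between -0.87 (Col9a1) and 0.73 (Col23a1), with limma adjusted p from 0.623 to 0.995. Col23a1 varied widely within groups, with values of 22.03 and 62.0 in the controls against 107 and 35.9 in cKO, and each group held both a high and a low library. The untested Col24a1, Col27a1 and Col8a1 had 23, 30 and 34 reads in all. In each of these, 1 library held most of the reads: 15 of the Col24a1 and 20 of the Col8a1 reads were in cKO replicate 1, and 18 of the Col27a1 reads were in control replicate 2.

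Ratios between chains within a library do not depend on the scaling of libraries, and several varied less than the levels. Some pairs share a trimer, such as Col1a1 with Col1a2, and others do not, such as Col3a1 with Col1a1. The ratio of Col3a1 to Col1a1 values was 0.920 and 0.935 in the controls against 0.936 and 0.914 in cKO, a span of 1.02-fold from lowest to highest, while Col3a1 itself spanned 1.50-fold. Col1a1 over Col1a2 was 1.51 and 1.59 in the controls against 1.54 and 1.62 in cKO. In both, the groups overlapped and the libraries stayed within 1.07-fold of each other. Ratios are given to compare libraries, and because reads were not divided by length they are not the proportions of the chains in a trimer.

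The type 4 pairs behaved less alike. Col4a1 over Col4a2 was 1.64 and 1.64 in the controls against 1.65 and 1.74 in cKO, within 1.06-fold, although Col4a1 itself spanned 1.63-fold. Both cKO libraries were slightly above both controls in this ratio. Col4a4 over Col4a3 was 1.90 and 2.08 in the controls against 2.35 and 2.30 in cKO, higher in both cKO libraries. Col4a5 over Col4a6 was 3.33 and 2.68 in the controls against 4.85 and 3.21 in cKO, a span of 1.81-fold that rested on as few as 97 reads. Between networks, Col4a1 over Col4a4 was 2.47 and 2.90 in the controls against 3.14 and 3.23 in cKO, also without overlap.

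Col6a3 over Col6a2 was 0.695 and 0.705 in the controls against 0.741 and 0.680 in cKO, within 1.09-fold, whereas Col6a1 over Col6a2 was 1.23 and 1.22 in the controls against 1.78 and 1.35 in cKO. Col5a1 over Col5a2 was 0.983 and 1.03 in control and 1.05 in both cKO libraries, but Col5a3 over Col5a2 was 0.137 and 0.145 in the controls against 0.0911 and 0.1003 in cKO. The groups did not overlap for Col6a1 over Col6a2, Col5a1 over Col5a2 or Col5a3 over Col5a2. Col6a1 over Col6a2 owed most of its distance to cKO replicate 1. For Col5a1 over Col5a2 the libraries stayed within 1.07-fold, and Col5a3 over Col5a2 rested on as few as 68 reads in a library. Lamb1 over Lamb2 was 2.50 and 2.29 in the controls against 2.24 and 2.52 in cKO, and Lamb1 over Lamc1 was 2.26 and 2.20 in the controls against 2.40 and 1.92 in cKO, both overlapping. Lama2 over Lama1 was 3.78 and 3.09 in the controls against 3.18 and 3.46 in cKO. Col18a1 over Col15a1 was 5.15 and 4.74 in the controls against 5.69 and 5.41 in cKO, higher in both cKO libraries. Col9a2 over Col9a3 was 6.44 and 4.59 in the controls against 3.62 and 4.08 in cKO, lower in both, with as few as 17 reads in a library. Summed reads of basement membrane chains over fibrillar chains were 0.539 and 0.494 in the controls against 0.524 and 0.541 in cKO, so the balance of the classes overlapped between groups. With 2 libraries a group an exact permutation test of a ratio cannot go below p = 0.333. The pairs were chosen with earlier results of these data known, and the share of all gene pairs without overlap was not computed.

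**Figure D4:**
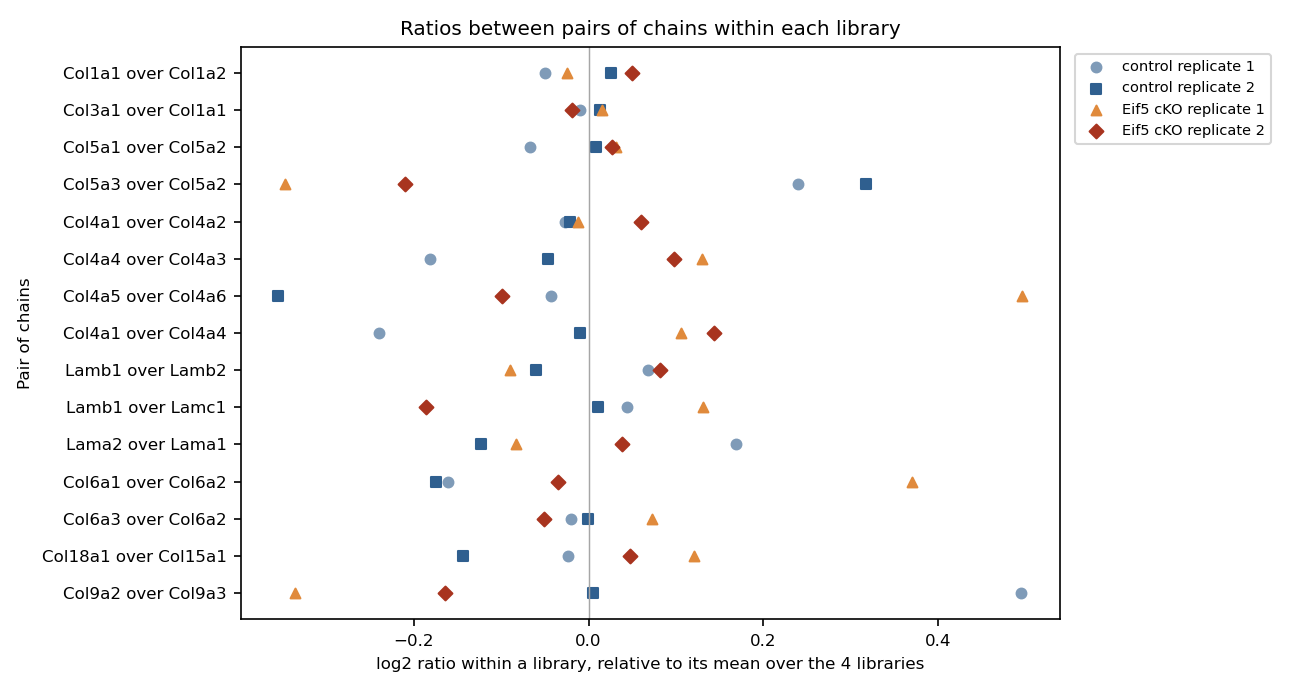
Log2 ratio between 2 chains within each library (horizontal axis), relative to its mean over the 4 libraries, for 15 pairs that do or do not share a trimer (vertical axis), 1 symbol per library. Col3a1 over Col1a1 and Col4a1 over Col4a2 lie in tight clusters (spans of 1.02-fold and 1.06-fold). Col5a3 over Col5a2 separates the controls (0.137 and 0.145) from the cKO libraries (0.0911 and 0.1003), with as few as 68 reads in a library. The pairs were chosen with earlier results of these data known.

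Genes that act on these chains were read from the same fit. Of 18 tested genes for chain hydroxylation, glycosylation and folding, 0 were called in either direction, and the median log2 fold change was 0.09. An unadjusted limma p under 0.05 was found for 4 of the 18, against 10.6% of all genes. P3h4, a scaffold of the lysine-modifying complex, was at 228 and 314 in the controls against 454 and 357 in cKO (0.59, SE 0.24), and Fkbp14, a prolyl isomerase of the endoplasmic reticulum, at 184 and 368 in the controls against 580 and 287 in cKO (0.65, SE 0.28). Neither passed (limma adjusted p = 0.340 and 0.387). Of 16 genes for export, cleavage and crosslinking 0 were called, with a median of 0.18. The smallest p there belonged to Tll2, a procollagen protease with 47 reads (1.86, SE 0.99), and Pcolce, the enhancer of procollagen cleavage (0.40, SE 0.24).

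Among 18 further basement membrane genes 0 were called, with a median of 0.17. Fbln1 and Fbln2, a pair of related fibulins, had opposite signs: Fbln1 was at 334 and 450 in the controls against 271 and 233 in cKO (-0.62, SE 0.24), and Fbln2 at 293 and 489 in the controls against 685 and 454 in cKO (0.56, SE 0.25). Among 22 interstitial glycoproteins and proteoglycans 0 were called, with a median of 0.04, and the smallest p belonged to the microfibril gene Mfap2 (0.55, SE 0.27) and the fibronectin gene Fn1 (-0.46, SE 0.23). Among 17 receptors 0 were called, with a median of 0.06, and the smallest p belonged to the collagen uptake receptor Mrc2 (-0.53, SE 0.32) and the shared integrin subunit Itgb1 (0.43, SE 0.28). Among 16 proteases and inhibitors 0 were called, with a median of 0.21, and 8 of 16 had both cKO libraries above both controls, beside 20.0% of all genes. The smallest p there belonged to the collagen-degrading protease Ctsk (66.9 and 87.2 in the controls against 136 and 124 in cKO; 0.76, SE 0.31) and Mmp2, a gelatinase that cleaves type 4 collagen (550 and 728 in the controls against 936 and 821 in cKO; 0.47, SE 0.23). An unadjusted limma p under 0.05 was found for 0 of 16 export, 2 of 18 basement membrane and 1 of 22 interstitial genes. It was found for 0 of 17 receptor and 3 of 16 protease genes, beside 10.6% of all genes. Both cKO libraries lay above both controls for 4 of 18 folding, 5 of 16 export and 3 of 18 basement membrane genes. The same held for 3 of 22 interstitial and 3 of 17 receptor genes. Of the cell markers below, it held for 6 of 12 Sertoli, 5 of 7 Leydig and 5 of 9 macrophage genes. It also held for 3 of 8 stroma, 1 of 9 endothelial and 0 of 7 myoid markers. Both cKO libraries lay below both controls for 3 basement membrane, 3 interstitial, 1 folding, 1 Sertoli and 1 endothelial gene, beside 20.9% of all genes. In the export, receptor, protease, Leydig, macrophage, stroma and myoid lists this held for 0 genes.

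Markers of the cells that could make these chains moved between libraries too, and 0 genes of any somatic list were called. The 12 Sertoli cell markers took 1.92% and 2.52% of reads in control and 3.35% and 2.44% in cKO, and 10 of 12 had a positive log2 fold change. Most of these reads were of 1 gene, Clu, named after its values were seen: without it the other 11 took 0.430% and 0.460% in the controls against 0.645% and 0.504% in cKO, higher in both cKO libraries. Those with the smallest p were Amh (0.71, SE 0.27) and Gata1 (-0.75, SE 0.30). The 7 peritubular myoid markers took 0.271% and 0.263% in the controls against 0.247% and 0.209% in cKO and all had a negative sign, including Cnn1 (-0.35, SE 0.32) and Myh11 (-0.21, SE 0.23). The 8 interstitial stroma markers took 0.101% and 0.118% in the controls against 0.129% and 0.139% in cKO, and 7 of 8 were positive, including Igf1 (0.42, SE 0.23) and Ly6a (1.05, SE 0.62). The 9 endothelial markers took 0.0442% and 0.0467% in the controls against 0.0541% and 0.0408% in cKO. Of these 6 were positive and 3 negative, with a median of 0.07, and those with the smallest p were both negative, Emcn (-0.76, SE 0.55) and Cldn5 (-0.50, SE 0.42). Leydig cell markers took 0.0662% and 0.0797% in the controls against 0.114% and 0.104% in cKO, and all 7 tested were positive, including Cyp11a1 (0.80, SE 0.24) and Star (0.85, SE 0.29). Macrophage markers took 0.0466% and 0.0533% in the controls against 0.0627% and 0.0688% in cKO, and 8 of 9 were positive, including Adgre1 (0.76, SE 0.30) and Mrc1 (0.51, SE 0.23). Leaving out the gene with the most reads, Pdgfra, the stroma shares were 0.0419% and 0.0529% in the controls against 0.0503% and 0.063% in cKO, and overlapped. The signs given are those of the deposited scaling. Every marker in these lists had reads in each of the 4 libraries. The part of any cell type in the values of the chains was not tested.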

How the data were processed

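Ribosome footprints of whole testes were sequenced in 2 control and 2 Eif5 cKO libraries at day 10. The submitters' processing notes name Bowtie2, STAR, featureCounts and the build GRCm38; no source used here gives versions or the settings for strand and multi-mapping. The deposited table is labelled as raw counts, but the deposited values are a normalized signal: within a library they are whole multiples of a single step, which is 1 over the size factor that the median-of-ratios method gives for these reads. Whole reads were recovered for 100% of values (tolerance 1e-06), and 0 columns belonged to other samples. The table holds only genes with at least 10 reads over the libraries.

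Groups and replicate numbers were taken from the sample titles. Genes passing edgeR's filterByExpr (minimum count 10) on the recovered reads were tested with limma 3.58.1 (trend) in R 4.3.3 on log2(value + 1), with Benjamini-Hochberg adjustment over all 12095. A gene's own spread entered with 2 residual degrees of freedom and the trend over all genes with 37. The count test on recovered reads, edgeR 4.0.16 quasi-likelihood, called 92 genes; DESeq2 1.42.0 and limma-voom were further alternatives, with other scalings, filters, pseudocounts and each library left out. The marker shares without the gene of most reads were added after seeing the data. On simulated reads limma made 99 calls, 6 of them false.

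Named were all tested fibrillar, type 4 and laminin chains, and other collagens called, among the 8 highest mean values or the 4 smallest p. From each other list, called genes and the 2 with the smallest p were named. The members and lists, and the pairs whose ratios are given, were chosen with earlier results of these data known. Coding lengths were not used, so levels of different genes were not compared. Promoter windows and gene positions are RefSeq's for GRCm38.p6. The values of 1 member below the filter are not reported here.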

Additional observations from a re-analysis of the deposited data

How the results depend on the processing

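The number of genes called moved from 82 to 128 with scaling on Sertoli cell markers, to 37 at an adjusted p under 0.01 and to 149 under 0.1, and ranged from 10 (without control replicate 1) to 346 (without Eif5 cKO replicate 2) when 1 library was left out. The correlation over genes of same-numbered deviations was -0.047. With 2 libraries a group this is a single value, and it cannot show whether the replicate numbers pair the libraries. With the replicate number as a block 100 genes and 0 chains were called. The number of chains called was 0 under every alternative run except without Eif5 cKO replicate 2, and ranged from 0 to 2 over the libraries left out. With scaling on Sertoli cell markers the median log2 fold change was -0.12 for fibrillar, -0.072 for basement membrane and -0.30 for other chains; relative to the shifted median of all genes these were 0.19, 0.23 and 0.004. Leaving out 1 library gave -0.033 to 0.44 for the fibrillar, 0.003 to 0.42 for the basement membrane and -0.058 to 0.18 for the other collagen median. The cause was not tested.

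The Sertoli scaling shifts all genes alike, to a median of -0.30, and under it 17 named chains changed sign: Col1a1 (-0.10), Col1a2 (-0.13), Col3a1 (-0.11), Col5a1 (-0.071), Col5a2 (-0.13), Col4a2 (-0.0037), Col4a4 (-0.21), Lama2 (-0.026), Lama4 (-0.18), Lamb1 (-0.080), Lamb2 (-0.072), Lamc1 (-0.025), Lamc3 (-0.16), Col15a1 (-0.037), Col6a2 (-0.31), Col6a3 (-0.29) and Col6a5 (-0.13). Col6a2 was also negative with edgeR (-0.0062), limma-voom (-0.0041), TMM factors (-0.0061) and library totals (-0.041), and Col6a3 with library totals (-0.020). With 1 library left out, log2 fold changes that crossed 0 ranged from -0.023 to 0.44 (Col1a1), -0.084 to 0.45 (Col1a2), -0.043 to 0.45 (Col3a1), -0.0060 to 0.37 (Col5a2), -0.40 to 0.15 (Col4a3), -0.17 to 0.38 (Col4a4), -0.14 to 0.10 (Col4a6), -0.026 to 0.28 (Lama4), -0.0039 to 0.47 (Lamb1), -0.082 to 0.56 (Lamb2), -0.19 to 0.49 (Lamc3), -0.24 to 0.17 (Col14a1), -0.14 to 0.15 (Col6a2), -0.15 to 0.20 (Col6a3), -0.68 to 0.25 (Col6a4) and -0.13 to 0.49 (Col6a5). None of these chains passed in any of these fits, and the cause was not tested. Depth limits the chains with under 100 reads a library most.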
